A study of Mus musculus with 6 samples.

Results

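The type I interferon-stimulated genes are described here in mouse livers with and without Arid1a in hepatocytes. The list holds 42 genes, taken by name from a deposited table of 14499 genes, and all 42 had exactly 1 row. Total liver RNA was sequenced in 6 libraries, 3 labelled WT_DDC (wild type) and 3 labelled Arid1a_KO_DDC (a knockout of Arid1a restricted to hepatocytes). All mice were 10 weeks old, of a mixed C57Bl/6; 129Sv background, and both genotypes had 2 weeks of injury with DDC, a compound that disturbs heme synthesis and damages bile ducts. An uninjured group was not analysed here, so every level below is a level under DDC. The way the deletion was driven is not given in the sources used here, and the labels do not tie the libraries to individual mice. P-values here therefore cover only the variation among libraries, part of which may be technical. Since replicate 1 of both groups lacked Y-linked transcripts (below), it did not come from the same mice as replicates 2 and 3. Values are FPKM (fragments per kilobase of transcript and library size), which are scaled by gene length.

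Type I interferons bind the IFNAR receptor, whose kinases activate transcription factors, STAT2 among them. With IRF9 these form the complex ISGF3, which binds a short DNA element, the interferon-stimulated response element, in front of its target genes. The targets include sensors of foreign RNA, enzymes that block viral replication, the ubiquitin-like protein ISG15 and IRF7, which amplifies the response. In liver, hepatocytes, Kupffer cells and endothelial cells can all mount this response.

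The promoters of the 5 members that rose (below) are shown because the response element is where ISGF3 binds. The sequences are the 160 bases directly upstream of the RefSeq gene start (GRCm38.p6), 5′ to 3′ on the gene's strand, with capitals marking matches to the motif searched for (GAAA, any 2 bases, GAAA) on either strand, which overlap one another in Isg15 and Oas1a. They lie at chr4:156200819-156200978 (Isg15, minus strand), chr19:34640729-34640888 (Ifit1, plus), chr5:120907526-120907685 (Oas1a, minus), chr19:34583369-34583528 (Ifit3, plus) and chr3:151749911-151750070 (Ifi44, minus).
Isg15: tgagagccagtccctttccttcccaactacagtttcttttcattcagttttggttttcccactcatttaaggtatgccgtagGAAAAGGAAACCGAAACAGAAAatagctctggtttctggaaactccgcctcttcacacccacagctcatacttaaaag
Ifit1: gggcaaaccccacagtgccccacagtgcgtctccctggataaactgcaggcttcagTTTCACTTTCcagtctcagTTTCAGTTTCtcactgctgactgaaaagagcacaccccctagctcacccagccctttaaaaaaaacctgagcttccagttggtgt
Oas1a: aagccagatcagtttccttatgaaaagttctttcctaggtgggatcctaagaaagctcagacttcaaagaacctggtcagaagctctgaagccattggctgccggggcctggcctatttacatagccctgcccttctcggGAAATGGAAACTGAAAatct
Ifit3: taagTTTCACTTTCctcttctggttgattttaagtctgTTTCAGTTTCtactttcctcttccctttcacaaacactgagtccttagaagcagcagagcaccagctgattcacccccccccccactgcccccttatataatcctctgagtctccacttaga
Ifi44: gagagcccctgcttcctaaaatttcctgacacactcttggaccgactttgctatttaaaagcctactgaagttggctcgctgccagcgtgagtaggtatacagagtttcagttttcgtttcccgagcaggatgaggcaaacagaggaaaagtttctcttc

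Promoters were matched for 32 of the 42 members. The entries not matched were Mx1, Mx2, Oas2, Usp18, Dhx58, Parp9, Parp14, Rtp4, Zbp1 and Ifi27. In the 250 bases upstream of the start, 9 of the 32 members held this motif (28.1%), against 3.46% of the 27025 genes with a promoter entry. Isg15 had 3 overlapping matches, the farthest beginning 78 bases upstream, and Oas1a had 2, beginning 20 and 14 bases upstream. Ifit1 and Ifit3 had 2 matches each, separated by other bases. The other members with a match were Bst2, Oas3, Rsad2, Stat2 and Trim30a. In Ifi44 these letters do not occur in this window. The gamma-activated site TTCNNNGAA, an element of the interferon-gamma response, occurred in 5 of the 32 members (15.6%), namely Bst2, Eif2ak2, Ifit2, Irf1 and Oas1a, against 8.13% of all genes; in Bst2 and Oas1a both motifs occur. These are matches of letters and not shown to be bound.

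Of the libraries as a whole, 11280 to 11712 genes had at least 1 FPKM. Depth, estimated from the most common ratio of low FPKM values to those of WT_DDC replicate 1, was 0.90 to 1.15 of that library's. Absolute depth is unknown. Arid1a itself was at 7.85, 5.48 and 5.98 FPKM in wild type and at 6.61, 5.01 and 3.81 FPKM in knockout libraries, so its gene-level value, which covers all exons and cell types, overlapped between the groups and does not check the labels. Replicate 1 of both groups lacked Y-linked transcripts (Ddx3y at 0.0527 and 0.0227 FPKM, against 9.27 to 11.3 in the other libraries), and its library identifiers, L0566 and L0567, stand apart from L0602 to L0605. Hepatocyte markers were abundant in all libraries, with a summed level of 44948 to 48007 FPKM in wild type and 47660 to 60102 in knockout over 10 of 10 markers. Most of each sum was Alb, at 26589 to 34012 FPKM over all 6 libraries. The knockout minus wild type difference on the log2(FPKM + 1) scale was positive in 8 of the 10. It ran from -1.29 for Cyp2e1 to 0.60 for Ttr.

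Isg15, Ifit1, Oas1a, Ifit3 and Ifi44 rose in knockout livers, and most other members had positive differences that did not pass the test. Of the 41 members that passed the filter (at least 1 FPKM in at least 3 of the 6 libraries), 5 rose and 0 fell in the limma fit over 11839 genes at an adjusted p of 0.05. Over all genes tested 0.135% were called higher and 0.355% lower. In 24 of the 41 every knockout library lay above every wild-type library, as for 7.09% of all genes tested, and in 1, Irf1, every knockout library lay below, as for 9.56% of all genes. The remaining 16 overlapped. The log2 difference on the log2(FPKM + 1) scale had a median of 0.81 and was positive in 39 of the 41, against a median of 0.0034 and 50.6% positive over all genes. Wild-type levels were at least 1 FPKM in all 3 libraries for 39 of the 41, while Ifit2 and Mx1 reached the filter only with the knockout libraries counted, and Oas3 did not pass. With 3 libraries a group, an exact permutation test of a single gene cannot give a p below 0.1.

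The number of calls changed with the libraries used. Without Arid1a_KO_DDC replicate 1, 4 members were called higher, of 30 genes in all. Without Arid1a_KO_DDC replicate 2 there were 2 of 6, and without WT_DDC replicate 1 there was 1 of 9. In L0602 to L0605 alone 2 were called, of 26 genes in all. Without WT_DDC replicate 2 or 3, or without Arid1a_KO_DDC replicate 3, 0 members and 0 genes in all were called higher. At an unadjusted limma p under 0.05, 19 to 28 members and 337 to 973 genes in all were higher whichever library was left out. With all 6 libraries 25 members were, against 4.65% of all genes tested. The sign of the difference held for all 41 members in every alternative run, and the median was 0.72 to 0.84 with 1 library left out.

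**Figure D1:**
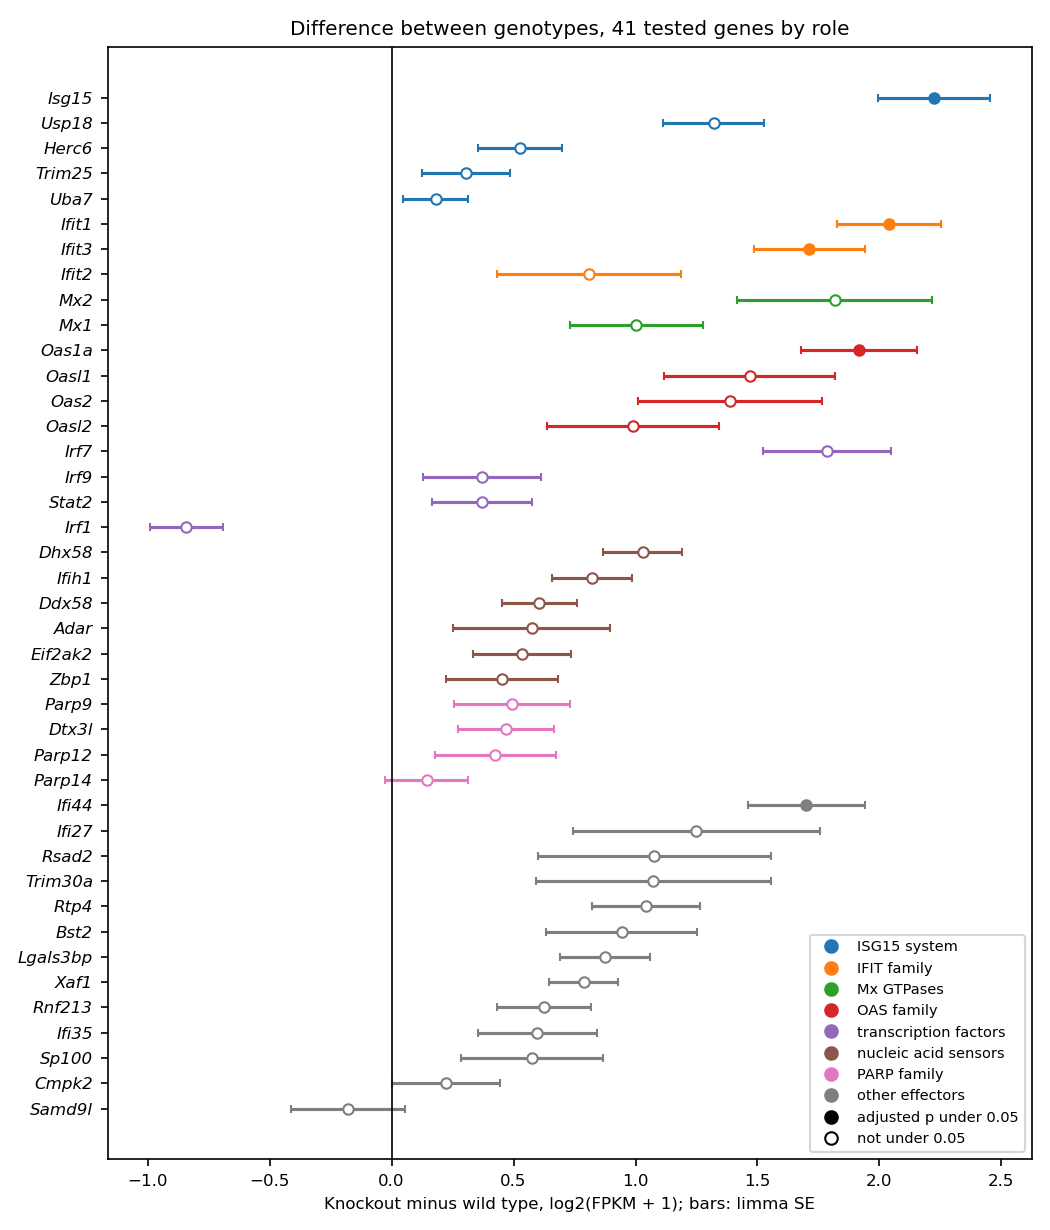
Knockout minus wild type difference of each of the 41 tested interferon-stimulated genes, on the log2(FPKM + 1) scale, grouped by role (colour), with limma standard errors as bars; filled points have an adjusted p under 0.05. The 5 filled points lie between 1.70 and 2.22, and Irf1 at -0.84 and Samd9l at -0.18 are the points below 0.

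The ISG15 system held the largest difference among the 41 tested members, that of Isg15. Of its 5 members 1 rose, against 0.135% of all genes tested. ISG15 is a ubiquitin-like protein attached to other proteins by the activating enzyme UBA7, the conjugating enzyme UBE2L6 and the ligase HERC6, and removed by USP18, which also damps signalling at IFNAR. Isg15 (ENSMUSG00000035692, chromosome 4, 156199424 to 156200818, GRCm38) was at 17.4, 17.6 and 21.5 FPKM in wild type against at 85.0, 127 and 70.6 FPKM in knockout libraries. The lowest knockout library was thus well above the highest wild-type library, and the gene rose by 2.22 log2 units (SE 0.23, limma adjusted p = 0.0214), from 18.9 ± 2.33 to 94.1 ± 29.0 FPKM (SD, n = 3 libraries each). This difference was 1.99 to 2.41 over all alternatives, and it passed in 11 of 17.

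Usp18 was at 10.2, 10.5 and 7.31 FPKM in wild type and 19.7, 29.9 and 25.2 FPKM in knockout. The groups did not overlap, and the difference of 1.32 (SE 0.21) did not pass over all genes (limma adjusted p = 0.0633). A predicted gene, Gm44148, overlaps Usp18 on the opposite strand, and the strand used in counting is not given, so reads in the shared stretch cannot be told apart. Uba7 barely differed, at 20.1, 18.7 and 18.9 against 19.6, 24.6 and 21.9 FPKM (0.18, SE 0.13, limma adjusted p = 0.678). Herc6 was at 1.92 to 2.52 FPKM in wild type and 3.12 to 4.52 in knockout (0.52, limma adjusted p = 0.32), without overlap. Trim25, a ubiquitin ligase that acts on the RNA sensor RIG-I, overlapped at 9.05 to 13.7 and 12.5 to 15.6 FPKM. Ube2l6, which is outside the list, was at 45.6, 42.1 and 38.7 FPKM in wild type against 65.1, 66.7 and 61.0 in knockout libraries (0.60, limma adjusted p = 0.136).

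IFIT proteins bind foreign RNA at its capped or triphosphate end and block its translation. The 3 genes lie in 1 cluster on chromosome 19, and 2 of them rose, against 0.135% of all genes tested. Ifit1 (ENSMUSG00000034459, 34640871 to 34650009) was at 2.88, 2.63 and 2.30 FPKM in wild type and at 12.3, 19.0 and 11.1 FPKM in knockout. It was low and even in wild type, the groups lay far apart, and it rose by 2.04 (SE 0.21, limma adjusted p = 0.0215). It passed in 11 of 17 alternatives.

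Ifit3 (ENSMUSG00000074896, 34583531 to 34588731) was at 8.52, 5.22 and 9.46 FPKM in wild type and 27.1, 30.8 and 23.4 FPKM in knockout, and rose by 1.71 (SE 0.23, limma adjusted p = 0.0381). It passed in 8 of 17 alternatives. Its near-identical neighbour Ifit3b had a difference of 1.51 (limma adjusted p = 0.0573), so how reads were shared between the pair is uncertain. Ifit2 (34550694 to 34576419) was at 2.57, 0.966 and 1.29 FPKM in wild type and 6.29, 3.06 and 1.92 FPKM in knockout, so that replicate 1 was highest in both groups and the groups overlapped (0.81, SE 0.38, limma adjusted p = 0.487).

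The Mx genes encode dynamin-like GTPases that trap viral components, and C57BL/6 mice carry a defective Mx1 allele. The annotation (GENCODE M21) lists Mx2 as a polymorphic pseudogene, so a level of RNA of either gene does not show protein. Mx2 was at 4.58, 3.83 and 3.32 FPKM in wild type and 7.74, 22.9 and 23.4 FPKM in knockout. Knockout replicate 1 was far below the other two, and with that spread the difference of 1.82 (SE 0.40) did not pass (limma adjusted p = 0.15). It passed in libraries L0602 to L0605 alone (2.40, limma adjusted p = 0.0223) and without Arid1a_KO_DDC replicate 1 (2.31, limma adjusted p = 0.0292). Mx1 was at 1.70, 0.616 and 0.950 FPKM in wild type and 2.43, 4.59 and 2.57 FPKM in knockout, also without overlap (1.002, SE 0.27, limma adjusted p = 0.245).

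All 4 tested OAS genes had knockout libraries above all wild-type libraries, and 1 rose. Over all genes tested these shares were 7.09% and 0.135%. OAS enzymes make 2-5A, which activates the RNA-degrading RNase L. Oas1a (ENSMUSG00000052776, chromosome 5, 120896256 to 120907521) was at 2.80, 5.09 and 5.04 FPKM in wild type and 16.2, 23.2 and 17.1 FPKM in knockout. The groups did not overlap, and the rise was 1.92 (SE 0.24, limma adjusted p = 0.0331). Oas1a passed in 11 of 17 alternatives. Oas1g, a close copy in the same cluster and outside the list, had a difference of 2.02 (limma adjusted p = 0.0837), and reads shared among the Oas1 copies make the split between them uncertain.

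Oasl1, a repressor of Irf7 translation, was at 7.27, 10.9 and 3.63 FPKM in wild type and 18.6, 25.8 and 17.4 FPKM in knockout (1.47, SE 0.35, limma adjusted p = 0.181). Its wild-type libraries were spread widely. Oasl2 was at 2.72, 4.797 and 3.32 against 5.70, 14.4 and 6.07 FPKM, with replicate 2 highest in both groups (0.99, SE 0.35, limma adjusted p = 0.361). Oas2 was at 1.16 to 2.66 and 3.41 to 10.8 FPKM (1.39, limma adjusted p = 0.244). Oas3, not tested for its low level, was at 0.599, 0.392 and 0.417 FPKM in wild type and 0.865, 2.97 and 1.33 FPKM in knockout.

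**Figure D2:**
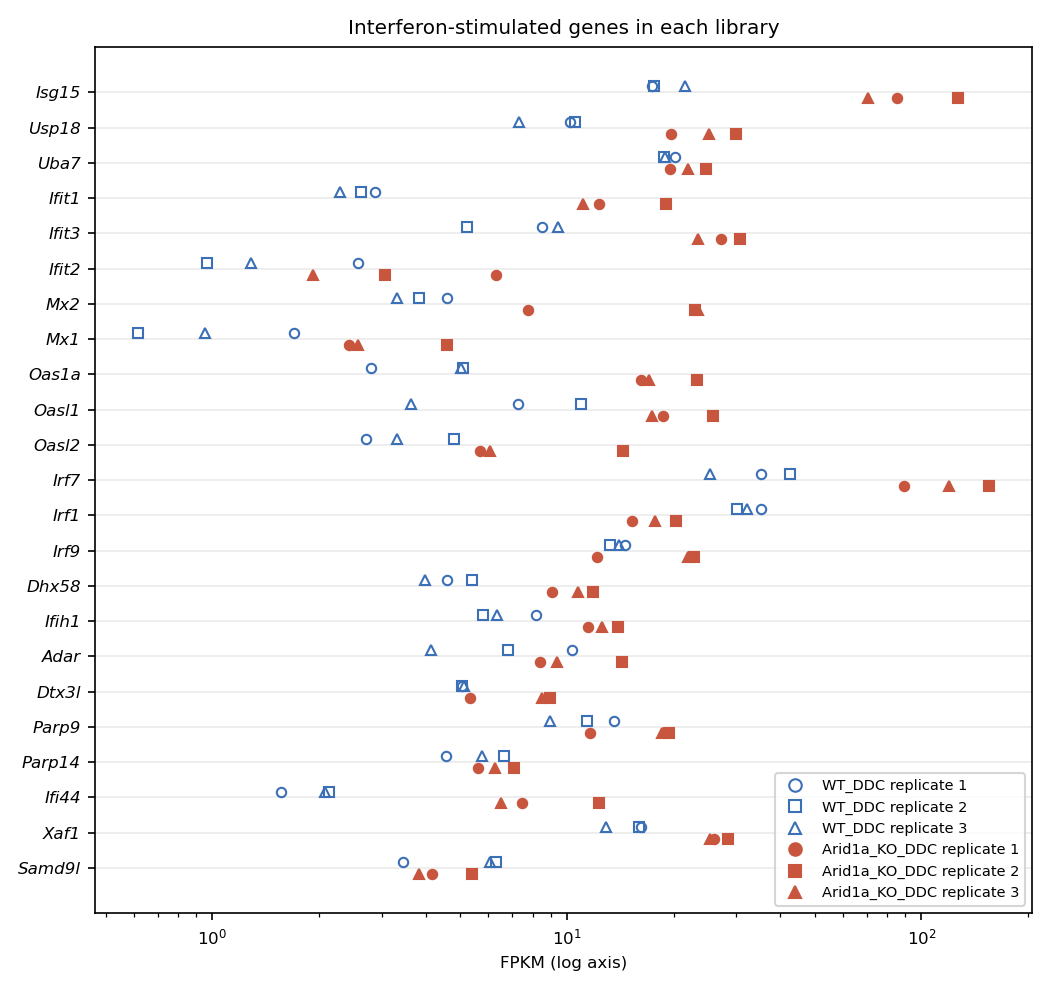
FPKM (log axis) in each library of the interferon-stimulated genes described in full, in order of role; open symbols are WT_DDC, filled symbols Arid1a_KO_DDC, and the shape gives the replicate number. For Isg15 the knockout libraries are at 70.6 to 127 FPKM and the wild-type libraries at 17.4 to 21.5, whereas for Irf1 the knockout libraries, at 15.3 to 20.4, lie below the wild-type libraries, at 30.1 to 35.3.

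The transcription factors of the list differed in direction, and 0 of the 4 passed over all genes in limma. At an unadjusted p under 0.05 Irf7 was higher and Irf1 lower, as were 4.65% and 6.5% of all genes tested. Irf7, which is itself induced and then drives interferon-alpha genes, was at 35.3, 42.6 and 25.3 FPKM in wild type and 89.4, 155 and 119 FPKM in knockout. It missed the threshold narrowly (1.78, SE 0.26, limma adjusted p = 0.0543) and passed in 5 of 17 alternatives (limma adjusted p = 0.0439 to 0.207 over all 17). Irf1, a factor induced mainly by interferon-gamma, lay the other way. It was at 35.3, 30.1 and 32.2 FPKM in wild type and 15.3, 20.4 and 17.8 FPKM in knockout, without overlap (-0.84, SE 0.15, limma adjusted p = 0.0944), and it was the 1 member with every knockout library below. Gm17334 overlaps Irf1 on the opposite strand, so part of its reads cannot be assigned.

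Irf9 and Stat2, which encode subunits of ISGF3, had small differences that did not pass. Irf9 was at 14.6, 13.3 and 14.0 FPKM in wild type and 12.2, 22.9 and 21.9 FPKM in knockout (0.37, SE 0.24, limma adjusted p = 0.629). Knockout replicate 1 was below all wild-type libraries and the other two above them. Stat2 was at 10.7 to 15.98 and 14.3 to 20.9 FPKM (0.37, limma adjusted p = 0.563).

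The 6 nucleic acid sensors and their regulators all had positive differences, between 0.45 and 1.03. In limma 0 passed over all genes, and 4 were higher at an unadjusted p under 0.05, against 4.65% of all genes tested. RIG-I, encoded by Ddx58, and MDA5, encoded by Ifih1, detect viral RNA in the cytoplasm, and LGP2, encoded by Dhx58, tunes them both. Dhx58 was at 4.60, 5.40 and 3.98 FPKM in wild type against 9.07, 11.9 and 10.7 in knockout libraries (1.03, SE 0.16, limma adjusted p = 0.0654). Ifih1 was at 8.15, 5.80 and 6.35 against 11.4, 14.0 and 12.6 FPKM (0.82, SE 0.16, limma adjusted p = 0.119), and Ddx58 at 7.47 to 9.30 against 12.002 to 15.4 FPKM (0.61, limma adjusted p = 0.213). For these 3 helicases the groups did not overlap and the knockout libraries were close together.

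Eif2ak2, the kinase PKR that stops translation on double-stranded RNA, was at 5.16, 2.99 and 2.996 FPKM in wild type against 5.66, 5.79 and 5.62 in knockout libraries. Wild-type replicate 1 was nearly at the knockout level (0.54, limma adjusted p = 0.391). Adar, which edits double-stranded RNA and so restrains these sensors, overlapped at 10.3, 6.81 and 4.12 against 8.41, 14.3 and 9.37 FPKM (0.57, SE 0.32, limma adjusted p = 0.569), and Chrnb2 overlaps it on the opposite strand. Zbp1, a sensor of Z-form nucleic acid, overlapped at 11.9 to 17.7 and 15.4 to 25.8 FPKM.

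The PARP genes, which encode ADP-ribosyl transferases, and Dtx3l, the ubiquitin ligase partner of PARP9, had differences of 0.14 to 0.50. In limma 0 of 4 passed the threshold, and 1 was higher at an unadjusted p under 0.05, against 4.65% of all genes tested. Parp9 and Dtx3l lie head to head on chromosome 16 and share 682 annotated bases on opposite strands, so they are not independent. Dtx3l was at 5.07, 5.04 and 5.12 FPKM in wild type and 5.33, 8.94 and 8.48 FPKM in knockout (0.47, SE 0.20, limma adjusted p = 0.447). Parp9 was at 13.6, 11.4 and 8.98 against 11.6, 19.4 and 18.5 FPKM (0.50, SE 0.24, limma adjusted p = 0.496). In both genes knockout replicates 2 and 3 stood above the rest, and knockout replicate 1 was close to or within the wild-type values. Parp14, their neighbour, overlapped at 4.56, 6.64 and 5.76 against 5.60, 7.10 and 6.25 FPKM (0.14, SE 0.17, limma adjusted p = 0.795), and Parp12 at 9.91 to 18.9 against 15.1 to 19.9 FPKM.

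Among the 13 other effectors 1 rose, 7 had groups that did not overlap upward, and 1 had a negative difference. Of all genes tested, 0.135% were called higher and 7.09% did not overlap upward. Ifi44 (ENSMUSG00000028037, chromosome 3, 151730922 to 151749960), a gene of the interferon response with antiviral activity, was at 1.57, 2.14 and 2.07 FPKM in wild type and 7.48, 12.3 and 6.50 FPKM in knockout. It rose by 1.70 (SE 0.24, limma adjusted p = 0.0453), a value just inside the threshold that was 0.0681 with no filter on low genes. It passed in 7 of 17 alternatives (limma adjusted p = 0.0397 to 0.154 over all 17). Xaf1, which antagonises the apoptosis inhibitor XIAP, was at 16.2, 15.96 and 12.9 against 25.9, 28.5 and 25.3 FPKM (0.79, SE 0.14, limma adjusted p = 0.0944). Its libraries were tight in both groups.

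Bst2, or tetherin, which holds budding virus at the cell surface, was the most abundant member per length, at 404, 832 and 592 FPKM in wild type and 858, 1431 and 1155 FPKM in knockout. Wild-type replicate 2 came close to the lowest knockout library (0.94, SE 0.31, limma adjusted p = 0.325). Lgals3bp, a secreted glycoprotein, was at 102, 119 and 91.9 against 175, 237 and 168 FPKM (0.87, limma adjusted p = 0.136). Rtp4, a chaperone of membrane receptors, was at 15.3 to 17.8 and 26.3 to 47.9 FPKM (1.04, limma adjusted p = 0.137), with Masp1 and a clone gene overlapping it. Rnf213, a large ubiquitin ligase, was at 19.6 to 22.4 and 25.4 to 41.1 FPKM (0.62, limma adjusted p = 0.296).

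Trim30a stood out through a single library, at 1.26, 1.59 and 1.83 FPKM in wild type and 2.23, 2.91 and 11.2 FPKM in knockout; its difference of 1.07 was 0.48 without Arid1a_KO_DDC replicate 3. Rsad2, which encodes viperin, an enzyme that makes a chain-terminating nucleotide, was at 5.84, 3.28 and 2.16 against 18.3, 6.15 and 5.29 FPKM. Its neighbour on chromosome 12, Cmpk2, a mitochondrial nucleotide kinase that supplies viperin's substrate, was at 4.23, 4.67 and 3.96 against 7.33, 4.93 and 3.75 FPKM. In both genes knockout replicate 1 was the highest library, unlike most of the list, and the groups overlapped (1.08 and 0.22, limma adjusted p = 0.474 and 0.754).

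Ifi27, an inner membrane protein, was at 66.0, 180 and 190 against 180, 480 and 356 FPKM, with replicate 1 lowest in both groups (1.25, SE 0.51, limma adjusted p = 0.43). Ifi35 overlapped at 26.1 to 32.2 and 32.1 to 60.4 FPKM, and Sp100, a protein of nuclear bodies, at 3.82 to 6.47 and 6.12 to 12.3 FPKM. Samd9l, a restriction factor that slows translation, overlapped at 3.46, 6.32 and 6.05 against 4.16, 5.38 and 3.82 FPKM (-0.18, SE 0.23, limma adjusted p = 0.819).

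Knockout replicate 2 had the highest level of the list. In 32 of the 41 tested members (78.0%) it was the highest of all 6 libraries, which was so for 17.4% of all genes tested. Among the knockout libraries alone it was the highest in 82.9% of the members, against 31.6% of all genes. The median over members, relative to the wild-type mean on the log2(FPKM + 1) scale, was 0.56, 0.96 and 0.68 in knockout replicates 1, 2 and 3, and -0.07 to 0.03 in the wild-type libraries. Over all genes tested it lay between -0.03 and 0.03 in every library. In knockout replicate 1 and replicate 3, 38 of the 41 members were above the wild-type mean, and in replicate 2, 40 were.

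**Figure D3:**
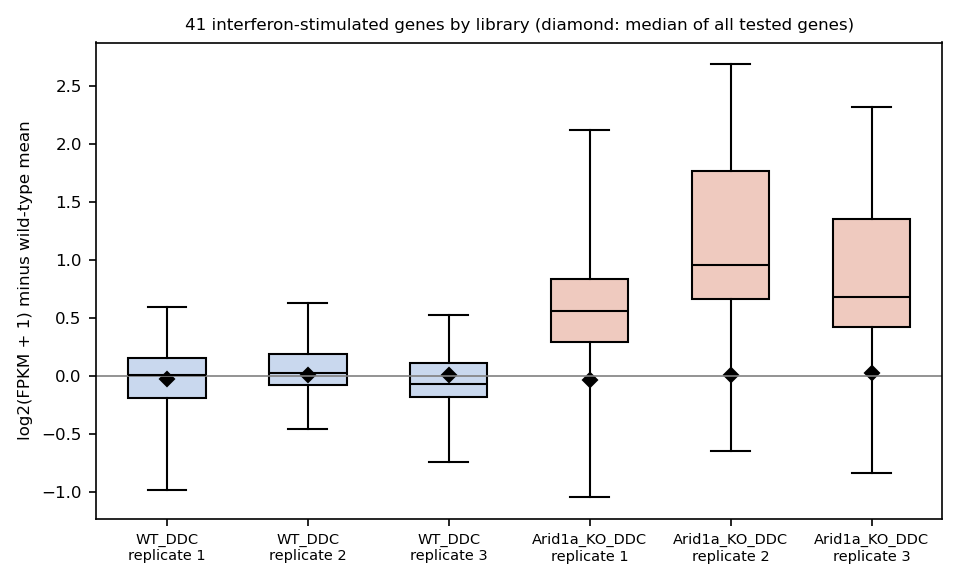
Level of the 41 tested interferon-stimulated genes in each library, as log2(FPKM + 1) minus the wild-type mean of each gene; boxes span the quartiles with the median as a line, whiskers reach the lowest and highest gene, and diamonds mark the median of all genes tested. The 3 knockout medians lie at 0.56 to 0.96 while the diamonds stay within 0.03 of 0.

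Markers of B and plasma cells differed among the knockout libraries. Over 5 of 6 markers they summed to 20.3 and 24.0 FPKM in knockout replicates 1 and 3, to 7688 FPKM in knockout replicate 2 and to 1532 to 5521 FPKM in wild type, and most of each sum was the immunoglobulin gene Igkc. Ms4a1 had no row in the table used here. The part of these markers in the high level of that library was not tested. Without Arid1a_KO_DDC replicate 2 the median difference of the members was 0.72, and 2 members were called higher, of 6 genes in all.

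Marker sums of other liver cells are given beside the members; their part in the result was not tested. Kupffer cell and macrophage markers (10 of 10) summed to 555 to 850 FPKM in wild type and 383 to 574 in knockout, and 9 of the 10 had a negative difference. Over all genes tested 50.6% had a positive difference. In 4 of the 10 every knockout library lay below every wild-type library, as for 9.56% of all genes. Sinusoidal endothelial markers (8 of 8) summed to 68.4 to 114 and 40.1 to 100.1 FPKM, and all 8 had a negative difference (median -0.48). Of 8 biliary markers 2 fell, against 0.355% of all genes tested. These were the tight junction gene Cldn4 (-1.42, limma adjusted p = 0.0386) and the keratin gene Krt23 (-1.99, limma adjusted p = 0.0447). In 4 of the 8 every knockout library lay below every wild-type library, as for 9.56% of all genes tested. Krt23 and Sox9, both counted there, reached the filter only with the wild-type libraries counted. Neither Cldn4 nor Krt23 passed when any library other than WT_DDC replicate 1 was left out. The biliary sum was 139.7 to 408 FPKM in wild type and 218 to 430.3 in knockout. Most of each sum was Spp1, at 108 to 348 and 195 to 406 FPKM. A negative difference was found in 7 of the 8 biliary markers. Stellate cell markers (8 of 8) summed to 68.5 to 82.9 and 53.8 to 84.6 FPKM, with 2 of the 8 wholly below, against 9.56% of all genes tested. Of these 8, 6 had a negative difference. T and NK cell markers (8 of 12) summed to 12.01 to 16.2 and 3.58 to 16.5 FPKM, and neutrophil markers (4 of 8) to 33.5 to 59.5 and 14.0 to 27.4 FPKM. The 4 tested T and NK cell markers and the 3 tested neutrophil markers all had negative differences. Of the plasmacytoid dendritic cell markers, cells that are a rich source of type I interferon, only Siglech, Tcf4 and Lag3 of 8 had a row, and they summed to 3.91 to 4.18 FPKM in wild type and 2.30 to 3.78 in knockout. All 3 had a negative difference, that of Tcf4 being -0.02. In bulk RNA, fewer cells of a type and less RNA per cell cannot be told apart, nor can the cell type in which a member was higher.

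The ligands, receptors and regulators of the pathway were described from separate lists. None of the 21 interferon genes listed, Ifnb1, Ifng and the Ifna genes among them, had a row in the table used here, so the ligands give no value. Of the 8 tested receptors and kinases, 7 had knockout values below wild type on average (median difference -0.27). In limma 0 passed, with 1 lower at an unadjusted p under 0.05, against 6.5% of all genes tested. The receptor chain Ifnar1 was at 13.1, 12.3 and 11.2 FPKM in wild type against 11.8, 8.95 and 9.45 in knockout libraries (-0.26, limma adjusted p = 0.591), and Ifnar2 at 72.5 to 90.2 and 85.7 to 95.9 FPKM. Il10rb, a receptor chain for lambda interferons and interleukin-10, overlapped at 11.4 to 16.7 and 7.54 to 12.2 FPKM (-0.38, limma adjusted p = 0.59). Ifngr1, a chain of the interferon-gamma receptor, was lower without overlap, at 27.2, 32.3 and 34.4 against 14.5, 16.9 and 16.8 FPKM (-0.92, SE 0.15, limma adjusted p = 0.0659).

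Of 18 tested genes that sense nucleic acids or relay the signal to interferon genes, 0 passed in limma, with a median of -0.12. At an unadjusted p under 0.05, 3 were lower and 0 higher, against 6.5% and 4.65% of all genes tested. In 4 (22.2%) every knockout library lay below every wild-type library, as for 9.56% of all genes. In 1 (5.56%) every knockout library lay above, as for 7.09% of all genes. The kinase gene Ikbke had a difference of -0.56, Irf5 of -0.70 and Rnaseh2b, a subunit of an enzyme that removes ribonucleotides from DNA, of -0.43 (limma adjusted p = 0.274, 0.314 and 0.334). Of 9 inhibitors of the pathway 0 passed in limma, and 2 were lower at an unadjusted p under 0.05, against 6.5% of all genes. In 2 of the 9 (22.2%) every knockout library lay below every wild-type library, as for 9.56% of all genes. Of these, Socs1 reached the filter only with the wild-type libraries counted. Socs1, which blocks the receptor kinases, was at 3.16, 1.82 and 2.29 FPKM in wild type against 0.478, 1.06 and 0.789 in knockout libraries, and Socs3 at 6.52 to 11.4 and 4.02 to 5.58 FPKM. Neither gene overlapped between the groups (-0.94 and -0.73, limma adjusted p = 0.157 and 0.283), while Pias1 and Ptpn1 did (-0.16 and 0.22).

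A second list of 56 type I interferon-stimulated genes, of which 47 were tested, showed a weaker shift than the members, with a median of 0.17. In limma 0 passed the threshold. At an unadjusted p under 0.05, 9 were higher and 1 lower, against 4.65% and 6.5% of all genes tested. In 8 of the 47 (17.02%) every knockout library lay above every wild-type library, as for 7.09% of all genes tested. Ifit3b and Slfn8, both in these counts, reached the filter only with the knockout libraries counted. So did Oas1b, which was among those higher at an unadjusted p under 0.05. The smallest p-values were those of Ifit3b, Ifi27l2a at 21.2, 31.2 and 22.2 against 59.0, 86.4 and 58.7 FPKM (1.41, limma adjusted p = 0.0632), and Oas1g; Ifit3b and Oas1g are close copies of called members.

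Of 23 tested genes induced by interferon-gamma, 2 fell (Tgtp1 and Cxcl9) and 0 rose, against 0.355% of all genes called lower. A negative difference was found in 21, the median was -0.72, and 9 overlapped between the groups. Cxcl11 alone (4.35% of the 23) had every knockout library above every wild-type library, as for 7.09% of all genes. In 13 of the 23 (56.5%) every knockout library lay below every wild-type library, as for 9.56% of all genes. Of these, Gbp2b, Gbp4, Gbp5, Tgtp2, Ciita and Cd274 reached the filter only with the wild-type libraries counted. Tgtp1, an immunity-related GTPase with a near-identical copy, Tgtp2, was at 37.3, 21.1 and 30.0 FPKM in wild type against 2.07, 1.74 and 1.06 in knockout libraries (-3.52, limma adjusted p = 0.0128), and the chemokine gene Cxcl9 at 31.8, 44.7 and 39.5 against 12.3, 8.80 and 6.999 FPKM (-1.96, limma adjusted p = 0.0277). Without WT_DDC replicate 3 or without Arid1a_KO_DDC replicate 3 neither gene passed, and Cxcl9 also did not pass without replicate 2 of either group. Ifi47 was at 22.0 to 34.6 and 10.1 to 12.9 FPKM (-1.09, limma adjusted p = 0.102). Within the members Irf1 lay on the side of these genes. Cxcl10, which both interferon types induce, overlapped at 40.3 to 80.01 and 43.4 to 59.2 FPKM (-0.33, limma adjusted p = 0.713).

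**Figure D4:**
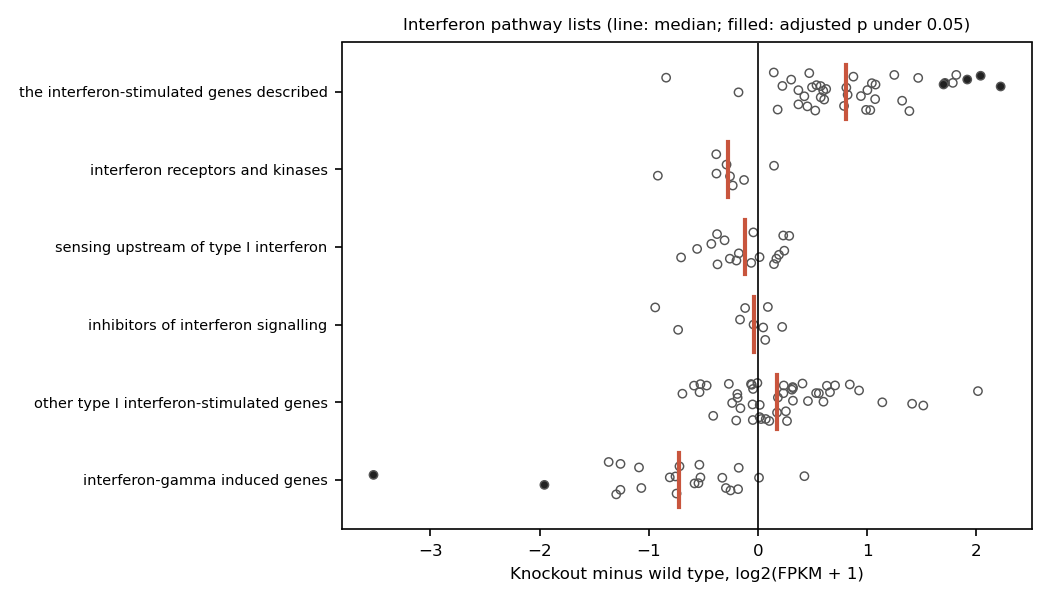
Knockout minus wild type differences on the log2(FPKM + 1) scale of the tested genes of each interferon list, 1 point per gene with vertical scatter for legibility; red lines are medians and filled points have an adjusted p under 0.05. The members have a median of 0.81 and the interferon-gamma induced genes of -0.72, with the other lists between.

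The differences are set out by promoter motif as a description, with no test. The 8 tested members with the motif had a median difference of 1.39 (range 0.37 to 2.22), 6 of them with groups that did not overlap upward, and 4 of the 5 called members were among them. The 23 members without the match had a median of 0.57 (range -0.84 to 1.78), with 12 not overlapping upward. Over all 292 tested genes with the match the median was 0.02 and 9.59% did not overlap upward, against 0.0049 and 7.15% of the 8478 genes without it.

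The differences are given by library set. In replicate 1, with 1 library a group and so no replicate check, the difference was positive in 36 of the 41 with a median of 0.59, and in replicates 2 and 3 in 39 with a median of 0.87; over all genes tested the medians were -0.02 and 0.0072. It was larger in replicates 2 and 3 for 28 of the 41 members (68.3%), against 51.2% of all genes. Isg15 had 2.23 and 2.22 and Ifi44 1.72 and 1.69, nearly the same in both sets. Mx2 differed most between the sets, at 0.65 in replicate 1 and 2.40 in replicates 2 and 3.

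In the limma interaction fit 0 of the 41 members and 0% of all genes tested passed, the smallest adjusted p of a member being 0.335 for Mx2 (unadjusted p = 0.000889). At an unadjusted p under 0.05 there were 5 members, Mx2, Irf9, Eif2ak2, Parp9 and Dtx3l, and 1072 genes in all (9.05%). Presence of Y-linked transcripts and library set coincide and cannot be told apart.

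**Figure D5:**
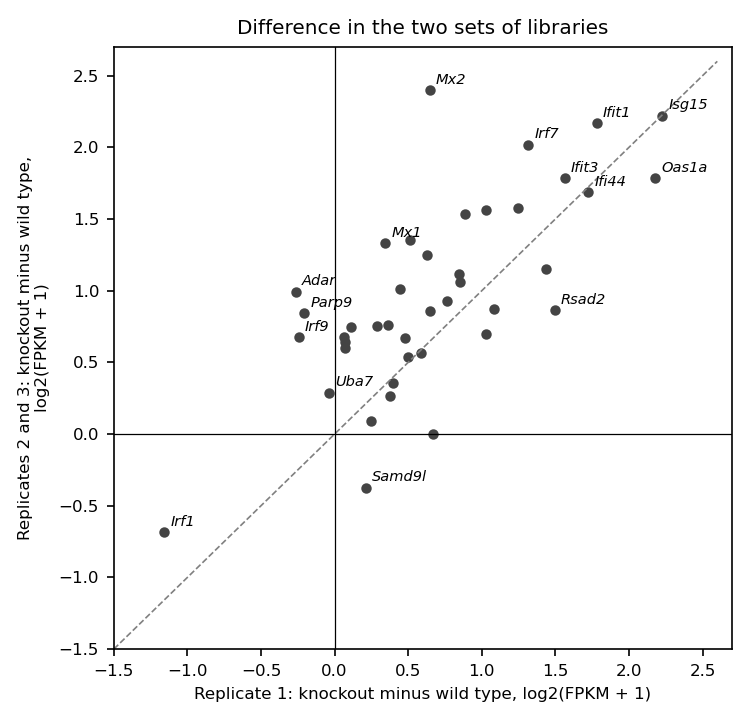
Knockout minus wild type difference of the 41 tested interferon-stimulated genes in replicate 1 (horizontal axis) and in replicates 2 and 3 (vertical axis), both on the log2(FPKM + 1) scale; the dashed line marks equal differences. Isg15 lies on the line near 2.22, and Mx2 lies farthest above it, at 0.65 and 2.40.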

How the data were processed

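The authors deposited 1 table of log2 FPKM for 6 libraries of total liver RNA; the submitters' processing notes list Cufflinks, TopHat2 (version 2.0.6) and the builds mm10 and GRCm38. No source used here gives the annotation, strand setting or gene filter. An offset of 0.000977 in the deposited log2 values was removed to recover FPKM (checked on 60069 values). Genes with at least 1 FPKM in at least 3 of 6 libraries (11839) were tested on log2(FPKM + 1), a scale that understates the change of low genes, with limma 3.58.1 in R 4.3.3 (eBayes with a trend, two-sided, Benjamini-Hochberg over all genes, threshold 0.05); adjusted p-values and SE are from this fit. The fit was tested on simulated data. Sample titles gave each library its group and number. The fragment number per library is unknown, so no counting interval is given.

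The members and all lists were chosen with earlier results of these data known. Some genes of the pathway and marker lists are not reported here. Given in full are the members past the threshold and, by role, the 2 with the smallest and the 1 with the largest p; from each pathway list the called genes and the 3 with the smallest p; other genes named were chosen after their values were seen. Promoters are from RefSeq (GRCm38.p6) and gene positions from GENCODE M21. Figures were drawn with matplotlib 3.10.9. Alternatives were other pseudocounts (0.1, 5), filters, scalings, eBayes settings, a library-set term or subset, a replicate block and leaving out each library.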

Additional observations from a re-analysis of the deposited data

Results flagged for a closer look

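In 5 members the difference had 1 sign in replicate 1 (1 library a group) and the other sign in replicates 2 and 3, where the groups did not overlap. This was so for 12.2% of the 41 tested members and for 19.7% of all genes tested. The knockout effect in replicate 1 minus that in replicates 2 and 3, as a limma interaction on the log2(FPKM + 1) scale, was -0.92 for Irf9, -1.05 for Parp9, -1.26 for Adar, -0.33 for Uba7 and 0.59 for Samd9l. The interaction had adjusted p-values of 0.447, 0.477, 0.554, 0.692 and 0.624, so none passed over all genes. In Irf9, Parp9, Adar and Uba7 the difference was negative in replicate 1 (-0.24, -0.21, -0.26 and -0.04) and positive in replicates 2 and 3, and in Samd9l it was 0.21 and -0.37.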

How the results depend on the processing

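The sign of all 41 tested members was the same as reported in every alternative run, and 645 of 691 member values kept their sign and their side of the threshold. Main counts were 16 genes higher and 42 lower, and 5 members higher. Genes higher were 10 with no filter on low values, 33 with library set as a term and 26 in L0602 to L0605 alone; members higher were 3 with no filter and 2 in L0602 to L0605 alone. With 1 library left out, 0 to 30 genes were higher, 0 to 40 lower and 0 to 4 members higher. With a pseudocount of 5 the members' median was 0.55, since this scale compresses low genes. In the interaction fit 5 genes were called with a pseudocount of 5, 4 with no filter, 3 with a filter at 5 FPKM, 4 with robust eBayes and 0 to 1 with 1 library left out, and 0 members in each; the cause of the changed counts was not tested.

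The replicate numbers were not taken to pair the libraries: deviations from the group means correlated by 0.35, 0.13 and 0.02 in same-numbered pairs, and knockout replicate 2 correlated better with wild-type replicate 3 (0.26). With a replicate block 0 genes were higher, 0 lower and 0 members higher, with 28 members higher at an unadjusted p under 0.05.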
